A study of Rattus norvegicus with 5 samples.

Results

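Protein kinase C, calcium and calmodulin signalling was examined in the developing rat hippocampus through 40 listed genes. Members were the probe sets whose only annotated gene symbol equalled a listed gene. This gave 74 probe sets for 37 of the 40 genes, out of 8799 probe sets and 4736 named genes on the array, and the brightest probe set on average stood for its gene. Prkci, Prkcq and Calm3 had no such probe set. Total RNA from hippocampus samples labelled P5 was hybridised to 5 single-colour arrays. Of these samples, 2 belonged to the control diet group, 2 were fetal alcohol exposed and 1 belonged to the isocaloric diet group. In such designs an isocaloric diet matches the calories of an alcohol diet. The sample labels do not say whether a diet was fed to the sampled rats or to their mothers. The labels name no strain, sex, alcohol dose or exposure window, and leave unsaid whether a group's samples are separate animals or pools; p-values therefore measure only the spread between these samples, which may be technical.

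In this pathway, receptors coupled to G proteins or tyrosine kinases activate phospholipase C, which splits a membrane lipid into diacylglycerol and inositol trisphosphate. Diacylglycerol recruits protein kinase C to the membrane, and inositol trisphosphate opens its receptor on the endoplasmic reticulum and releases calcium. Calcium bound to calmodulin then switches on the calmodulin-dependent kinases and the phosphatase calcineurin, and pumps return calcium to the store or out of the cell. In the hippocampus this machinery is known for its part in synaptic plasticity, and several of its genes, Camk2a and Nrgn among them, are known to be expressed more strongly as forebrain neurons mature.

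The values are deposited intensities on a linear scale, 1 per probe set and array. Differences are given on the scale of log2(intensity + 10.6), with an offset equal to the 20th percentile over all arrays, so differences of dim probe sets are understated. Each comes with the standard error (SE) of a limma fit over all 5 arrays, in which the single isocaloric array was assumed to vary like the others. Probe sets below the 40th percentile of mean log2 value were not tested, which left 49 of the 74 member probe sets and 30 of the 37 genes. The 7 genes left out were dim on most arrays. The control diet arrays gave 9.71 and 13.0 for Prkca, 40.6 and 12.0 for Camk2a, 16.4 and 19.5 for Camk4, 12.7 and 13.5 for Plcb2, 32.5 and 29.6 for Plcb4, 3.61 and 4.83 for Itpr2 and 23.7 and 24.5 for Ryr2. For Camk2a, a subunit of the calmodulin-dependent kinase II of forebrain neurons, the fetal alcohol arrays gave 31.5 and 36.8 and the isocaloric array 8.17. Its lower control diet value lay close to the offset and its isocaloric value below it. The other Camk2a probe set, also not tested, gave 7.64 and 18.3, then 9.95 and 8.55, then 19.2. It was under the offset on 3 of the 5 arrays and had its highest value on the isocaloric array.

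No member passed an adjusted p of 0.05 in any comparison with limma, and neither did any other probe set (0.00% of 5244). At an unadjusted p under 0.05 the share of all tested probe sets was 5.61% for fetal alcohol against control diet, 4.21% against the isocaloric array and 6.81% between the diets. Against control diet, the 30 tested genes had a median difference of 0.05 after fetal alcohol, with 16 above 0 and 14 below. Against the isocaloric array their median was 0.24, with 25 above 0 and 5 below. The isocaloric array minus control diet gave a median of -0.07, with 9 above 0 and 21 below. Over all 3174 tested genes the medians were 0.01, -0.01 and 0.03, and differences above 0 made up 52.4%, 48.7% and 53.7% of genes, those below 0 47.6%, 51.3% and 46.3%. These 3 comparisons share arrays, so their values for a gene are not independent of one another. The median against control diet reached 0.17 without control diet array 1 and was 0.01 when all probe sets of a gene were averaged. The isocaloric minus control diet median ranged from -0.15 with averaged probe sets to -0.01 with arrays scaled to equal medians, where 14 genes lay above 0.

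**Figure D1:**
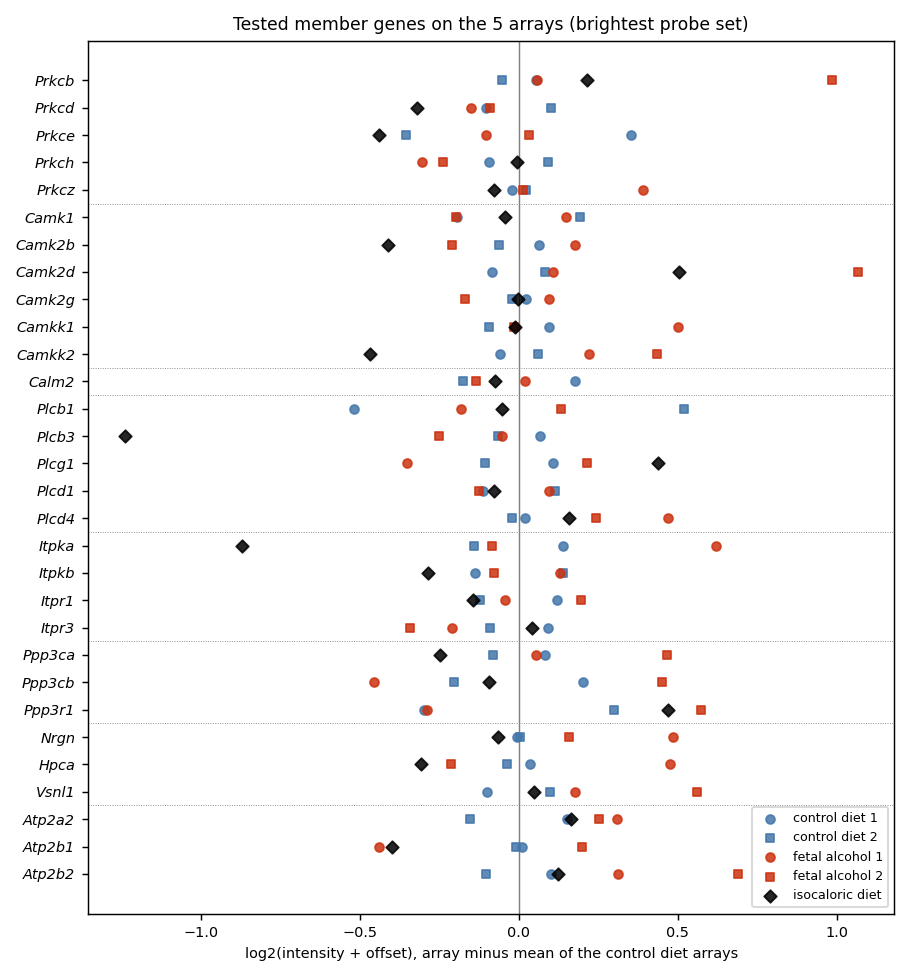
Log2(intensity + offset) of the 30 tested member genes on each array, minus the mean of the 2 control diet arrays, with dotted lines between the roles. The isocaloric array (diamonds) lies lowest for Plcb3 and Itpka, and fetal alcohol array 2 (red squares) lies far to the right for Prkcb and Camk2d.

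**Figure D2:**
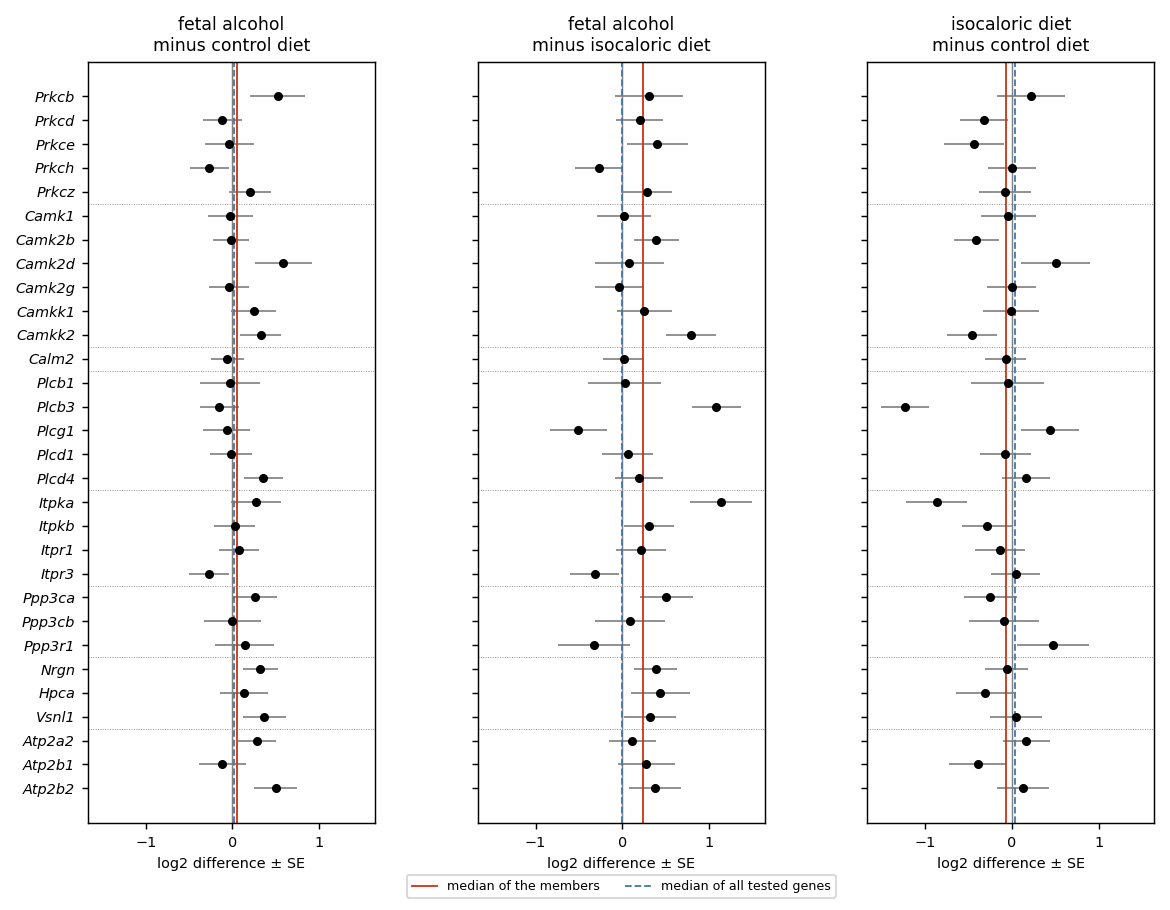
Log2 difference with its SE for each tested member gene in the 3 comparisons; the red line is the median of the members and the dashed line that of all tested genes. The members' median sits at 0.05, 0.24 and -0.07.

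Among the protein kinase C isoforms, Prkcb, a form activated by calcium and diacylglycerol, differed most from control diet after fetal alcohol. It measured 292 and 270 with control diet, 292 and 566 after fetal alcohol and 327 with the isocaloric diet. Only fetal alcohol array 2 stood apart, and the difference of 0.52 ± 0.32 (limma adjusted p = 0.948) rests on it. On the second Prkcb probe set array 2 was again the only high one, with 147 and 141, then 124 and 272, then 127. The dimmest of the 3 gave 133 and 117, then 88.2 and 146, then 80.3, and differed by -0.12 ± 0.28 from control diet.

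Prkce, which needs diacylglycerol but no calcium, measured 542 and 328 with control diet, 393 and 432 after fetal alcohol and 309 with the isocaloric diet. At this brightest probe set the control diet arrays enclosed both fetal alcohol values, and the isocaloric array was the lowest (difference from control diet -0.44 ± 0.35). A nearly as bright Prkce probe set gave 393 and 280, then 371 and 402, then 330, so the isocaloric array was not the lowest. Of the dimmer ones, fetal alcohol array 1 was the lowest in one (189, isocaloric 214) and the isocaloric array in the other (157). Prkch, of the same calcium-independent kind, measured 89.1 and 103 against 75.6 and 79.6 after fetal alcohol, with 95.4 with the isocaloric diet. Its fetal alcohol arrays were both below the other 3, with differences of -0.27 ± 0.22 from control diet and -0.27 ± 0.27 from the isocaloric array. Prkcz, an atypical form that responds to neither messenger, measured 251 and 259 with control diet, 337 and 257 after fetal alcohol and 241 with the isocaloric diet. Fetal alcohol array 1 alone was high (0.20 ± 0.24), and the dimmer Prkcz probe set had the opposite order, 62.1 on that array and 126 on array 2. Prkcd, a further calcium-independent form, measured 118 and 137 with control diet, 114 and 119 after fetal alcohol and 99.9 with the isocaloric diet. Fetal alcohol array 1 was below both control diet arrays, array 2 lay between them, and the isocaloric array was the lowest (-0.32 ± 0.28 from control diet). On the dimmer Prkcd probe set fetal alcohol array 1 was the lowest, with 38.7 beside 39.2 with the isocaloric diet.

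Of the calmodulin-dependent kinases, Camkk2, which phosphorylates and activates other kinases of this family, measured 45.1 and 49.9 with control diet, 57.0 and 67.9 after fetal alcohol and 31.4 with the isocaloric diet. The 3 groups did not overlap. Its differences were 0.33 ± 0.24 from control diet and 0.79 ± 0.29 from the isocaloric array (limma adjusted p = 0.998), and -0.47 ± 0.29 between the diets. Camkk1, the related kinase kinase, measured 167 and 145, then 225 and 154, then 154, with fetal alcohol array 1 alone above the rest.

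Camk2b, the beta subunit of calmodulin-dependent kinase II, was measured by a pair of bright probe sets. The brighter gave 2030 and 1860 with control diet, 2197 and 1680 after fetal alcohol and 1459 with the isocaloric diet. The other gave 927 and 833, then 946 and 803, then 500. Control diet and fetal alcohol overlapped in both, and the isocaloric array was the lowest in both, by -0.41 ± 0.26 and -0.80 ± 0.27 from control diet (limma adjusted p = 0.853 and 0.623). Camk2d, the delta subunit, measured 111 and 126 on control diet, 128 and 259 after fetal alcohol and 172 with the isocaloric diet. As for Prkcb, array 2 carried most of the difference of 0.59 ± 0.33, and a dimmer Camk2d probe set gave -0.11 ± 0.25. The gamma subunit Camk2g (-0.04 ± 0.23) and Camk1 (-0.02 ± 0.26) overlapped between all groups at the brightest probe set. A second Camk2g probe set measured 58.9 and 116 on control diet and 130 and 136 after fetal alcohol (0.61 ± 0.31), with most of the spread between the control diet arrays.

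Calm2, which encodes calmodulin itself, varied little: 3602 and 2818 with control diet, 3227 and 2903 after fetal alcohol and 3027 with the isocaloric diet. All groups overlapped, with a difference of -0.06 ± 0.19 from control diet. A missed threshold does not show that levels were alike.

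Among the phospholipases C, Plcb3, a form activated by G proteins, had the lowest isocaloric value relative to the other arrays. It measured 160 and 145 with control diet, 146 and 126 after fetal alcohol and 58.5 with the isocaloric diet. Control diet and fetal alcohol overlapped (-0.15 ± 0.23), and the isocaloric array was below them by -1.24 ± 0.28 from control diet (limma adjusted p = 0.449) and 1.09 ± 0.28 in the comparison with fetal alcohol (0.993). A second Plcb3 probe set was under the offset on all arrays and gives no check. Plcd4 measured 73.7 and 71.3 on control diet, 104 and 87.7 after fetal alcohol and 82.1 with the isocaloric diet, so both fetal alcohol values were above the other 3 (0.36 ± 0.23 from control diet). Plcg1, the form activated by tyrosine kinases, measured 226 and 194, then 162 and 245, then 288, highest with the isocaloric diet and with fetal alcohol arrays on either side of control diet. Plcd1 measured 43.6 and 52.8, then 52.0 and 43.1, then 45.0, with all groups overlapping (-0.02 ± 0.24 from control diet). Plcb1 had its widest gap inside the control diet group, 86.1 and 188.

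Of the genes that handle inositol trisphosphate, Itpka, the kinase that converts it to a form that no longer opens the receptor, measured 136 and 110 with control diet, 194 and 115 after fetal alcohol and 62.1 with the isocaloric diet. Fetal alcohol array 1 was the highest and the isocaloric array the lowest. The difference was 0.27 ± 0.29 between fetal alcohol and control diet, 1.14 ± 0.35 between fetal alcohol and the isocaloric array (limma adjusted p = 0.998) and -0.87 ± 0.35 between the diets (0.683). Itpkb, which carries out the same reaction, measured 76.1 and 94.6, then 93.8 and 80.0, then 67.8, again lowest with the isocaloric diet but by -0.28 ± 0.29. Itpr1, the receptor form of neurons, measured 101 and 83.5, then 88.8 and 107, then 82.1. Itpr3 went the other way, with 241 and 211 on control diet, 194 and 176 after fetal alcohol and 232 with the isocaloric diet. Its fetal alcohol arrays were the lowest of the 5 (-0.28 ± 0.23), and a second Itpr3 probe set also had both below the rest, 96.9 and 89.9 against 124 and 149 (-0.50 ± 0.23, limma adjusted p = 0.909).

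In the 3 calcineurin genes the fetal alcohol arrays lay apart from each other, with array 2 the higher. Ppp3ca, a catalytic subunit, measured 334 and 297 on control diet, 327 and 439 after fetal alcohol and 263 with the isocaloric diet. Ppp3cb, another catalytic subunit, measured 156 and 115, then 94.8 and 187, then 125, and differed by -0.002 ± 0.33 from control diet. Ppp3r1, the calcium-binding regulatory subunit, measured 103 and 161, then 104 and 197, then 183, and its dimmer probe set 75.9 and 74.3, then 32.6 and 110, then 94.1. All 4 probe sets overlapped between fetal alcohol and control diet. The isocaloric array was the lowest of the 5 for Ppp3ca (0.51 ± 0.30 for fetal alcohol minus isocaloric) and above both control diet arrays for both Ppp3r1 probe sets, and the control diet arrays themselves differed by 0.60 for the brighter of these.

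Nrgn encodes neurogranin, a postsynaptic protein that binds calmodulin at low calcium and is a substrate of protein kinase C. Its brightest probe set measured 1536 and 1546 with control diet, 2161 and 1720 after fetal alcohol and 1474 with the isocaloric diet. The second gave 1152 and 1055, then 1700 and 1293, then 852. In both the fetal alcohol arrays were above the other 3 and the isocaloric array below, with differences from control diet of 0.32 ± 0.20 and 0.42 ± 0.22 (limma adjusted p = 0.961 and 0.911). Vsnl1, a neuronal calcium sensor, measured 87.9 and 102, then 109 and 145, then 98.3, also with both fetal alcohol values on top (0.37 ± 0.24). Hpca, the calcium sensor hippocalcin, measured 600 and 570, then 817 and 504, then 470, so its fetal alcohol arrays lay on either side of control diet and its difference of 0.13 ± 0.27 became -0.21 without fetal alcohol array 1 and 0.48 without array 2.

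Among the calcium pumps, Atp2b2, which expels calcium across the plasma membrane, measured 167 and 143 on control diet, 195 and 256 after fetal alcohol and 170 with the isocaloric diet. Both fetal alcohol values were above the other 3, with a difference of 0.50 ± 0.25 from control diet (limma adjusted p = 0.911). The 3 other Atp2b2 probe sets gave 0.10, 0.30 and 0.05. One of these measured 98.5 and 89.2, then 72.3 and 131, then 42.5, and was the only one of the 4 with an unadjusted p under 0.05, in both comparisons with the isocaloric array. Atp2a2, which refills the endoplasmic reticulum, measured 900 and 727, then 1004 and 965, then 908, a difference of 0.28 ± 0.22. The other tested Atp2a2 probe sets gave 0.22, 0.08 and 0.12 and overlapped between fetal alcohol and control diet. Atp2b1, a second plasma membrane pump, measured 143 and 141, then 102 and 165, then 105, with fetal alcohol array 1 and the isocaloric array low.

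Counted over the 30 genes, fetal alcohol arrays both lay above both control diet arrays for 8 genes (26.7%) and both below for 2 (6.67%), against a background of 17.6% and 16.8% of all tested genes. The 8 were Prkcb, Camk2d, Camkk2, Plcd4, Nrgn, Vsnl1, Atp2a2 and Atp2b2, and the 2 were Prkch and Itpr3. These counts rest on the brightest probe set of each gene. Every other tested probe set of Prkcb, Camk2d and Atp2a2 overlapped, and so did most of those of Atp2b2. The second probe sets of Nrgn and Itpr3 did not overlap either. For Camk2g only the second probe set was without overlap. For Prkcb the margin was narrow, 292.3 against 291.8. With 2 arrays a group, the total of 10 of 30 without overlap (33.3%) was close to the background of 34.3%. No member had an unadjusted p under 0.05 in this comparison, where 4.73% of all tested genes did (1.51% higher and 3.21% lower).

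Against the isocaloric array, both fetal alcohol values were higher for 16 genes (53.3%) and lower for 3, Prkch, Plcg1 and Itpr3, where the background was 30.4% and 29.5%. An unadjusted p under 0.05 was reached by 3 genes, all higher after fetal alcohol: Plcb3, Itpka and Camkk2. These are 3 of 30 members, against 3.91% of all tested genes in either direction and 2.36% called higher. Without fetal alcohol array 1, 22 of 30 genes lay above 0, with a median of 0.20. Without array 2 the count was 21 and the median 0.17. Leaving out a control diet array cannot change these differences.

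The isocaloric array lay below both control diet arrays for 13 genes (43.3%) and above both for 7 (23.3%), where the background was 35.0% and 40.5%. An unadjusted p under 0.05 was reached by Plcb3 and Itpka, both lower, which is 6.67% of the members against 5.83% of all tested genes in either direction and 4.66% called lower. Over all member probe sets, 6 of 49 reached it in the comparison of fetal alcohol with the isocaloric array (2.67% of all tested probe sets were called higher) and 4 of 49 between the diets (5.43% called lower). These were Plcb3, Itpka, the second Camk2b probe set and an Atp2b2 probe set in both, and Camkk2 and the second Nrgn probe set in the first. With 1 isocaloric array, a difference of the diet cannot be told apart from a difference of that sample.

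**Figure D3:**
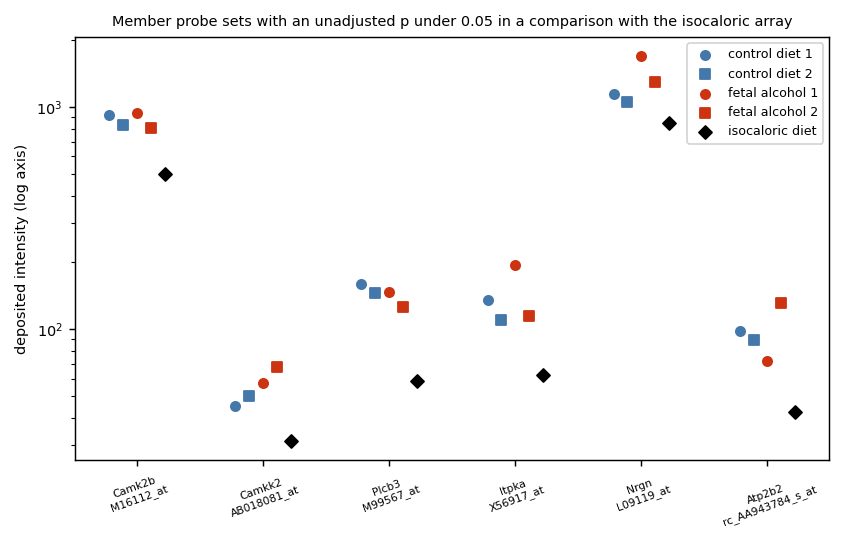
Deposited intensity on a log axis for the 6 member probe sets with an unadjusted p under 0.05 in a comparison with the isocaloric array. The diamond, the single isocaloric array, is the lowest point for each, for example 58.5 for Plcb3 against 126 to 160 on the other arrays. As the probe sets were chosen by a comparison with that array, its distance from the others is no separate result.

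The summed intensity of the 9 neuron markers on the array, of 13 listed, was 6958 and 6887 on control diet, 6903 and 7020 after fetal alcohol and 6112 with the isocaloric diet. At the brightest probe sets, the isocaloric array was the lowest of the 5 for 2 of the 9, Nefl and Elavl4. It was above both control diet arrays for Syt1 and Thy1, so the lower sum was not shared by all markers. Brightest were Uchl1 (3855 and 3643, then 3154 and 3131, then 3280) and Thy1 (752 and 755, then 1622 and 1185, then 786). Nefl gave 750 and 479, then 855 and 783, then 462. Syn1 gave 504 and 620, then 296 and 441, then 389. A second Thy1 probe set gave 278 and 263, then 361 and 305, then 223, lowest with the isocaloric diet. A dimmer Uchl1 probe set gave 2041 and 1911, then 2283 and 2114, then 2020, with fetal alcohol above the rest. Another was lowest with the isocaloric diet (1847). For the 6 of 10 markers of hippocampal excitatory neurons the summed intensity was 794 and 713, then 523 and 671, then 508. The isocaloric array was the lowest for 2 of the 6 at the brightest probe set. Slc17a7 was under the offset on all arrays. In whole tissue, fewer cells of a type and less RNA per cell cannot be told apart, and the part of either in the members' lower isocaloric values was not tested. Between fetal alcohol and control diet, the sum of 8 choroid plexus markers of 10 listed was 6977 and 7142 on control diet, 2633 and 1192 after fetal alcohol and 7731 with the isocaloric diet. The sum of 10 meninges markers was 5232 and 7841, then 6299 and 2803, then 4782, so it also differed between the fetal alcohol arrays. Igf2 and Igfbp2 are in both of these lists, so the choroid plexus and meninges sums are not separate readings. The 9 of 10 markers of astrocytes and radial glia (5618 to 6213 over the 5 arrays) and the 8 interneuron markers (3254 to 3658) had narrower ranges. Sums ranged from 308 to 466 for oligodendrocyte markers (5 of 8), 350 to 615 for microglia and macrophages (7 of 8, Csf1r under the offset on all arrays), 248 to 301 for endothelium (5 of 7) and 3591 to 4989 for red blood cells (3 of 5). The part of these markers in the members' differences was not tested. Beta-actin signal at the 3' probe set over that at the 5' one was 1.32 and 1.34 on control diet, 1.18 and 1.26 after fetal alcohol and 1.12 with the isocaloric diet; its part in the members' differences was not tested.

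The fetal alcohol arrays differed from each other for many members. Array 2 exceeded array 1 by more than 1.5-fold on the log2(intensity + offset) scale for Camk2d (0.96), Prkcb (0.93), Ppp3cb (0.91), Ppp3r1 (0.86) and Atp2b1 (0.64). Array 2 minus array 1 was -0.71 for Itpka and -0.69 for Hpca. These 7 of 30 genes make 23.3%, against 19.2% of all tested genes. The SD of the differences was 0.48 over the members and 0.49 over all tested genes. Between the control diet arrays it was 0.33 over both, with 3 of 30 members beyond 1.5-fold (Plcb1, Ppp3r1 and Prkce), against 6.52% of all tested genes.

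**Figure D4:**
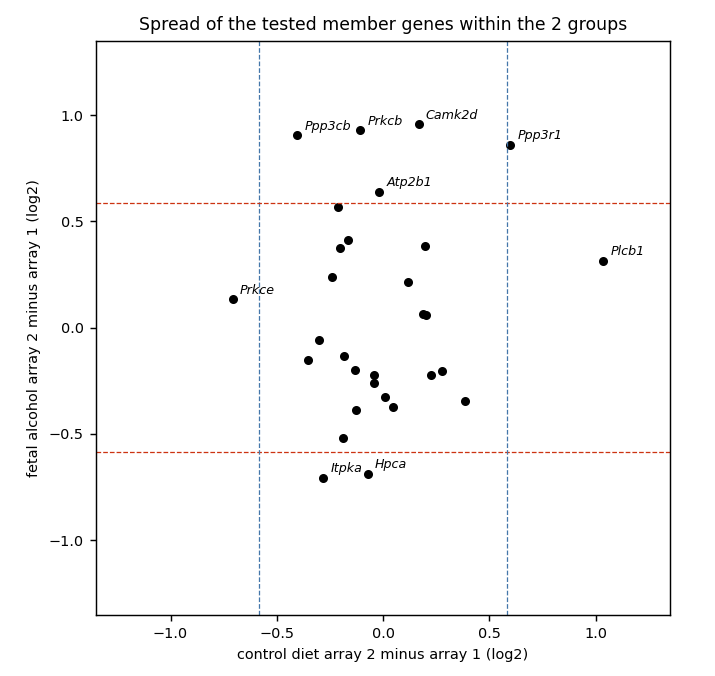
Log2 difference between the 2 arrays of a group for the 30 tested member genes, control diet on the horizontal and fetal alcohol on the vertical axis; dashed lines mark 1.5-fold. Names mark genes beyond a line: Camk2d, Prkcb, Ppp3cb, Ppp3r1 and Atp2b1 at the top and Itpka and Hpca at the bottom. Plcb1 and Ppp3r1 lie beyond the control diet line at the right, and Prkce beyond that at the left.

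Probe sets of the same gene bore on how far a difference can be read. For 12 members 2 or more probe sets were tested. All probe sets of a gene had the same sign for 6 of the 12 genes against control diet, 10 of 12 against the isocaloric array and 6 of 12 between the diets. Nrgn, Camk2b, Prkcd, Itpr3, Atp2a2 and Atp2b2 had probe sets of the same sign after fetal alcohol against control diet. For Nrgn, Camk2b, Prkcd and Itpr3 the probe sets are named after the same sequence, so their agreement is not an independent check. The Camk2b differences of -0.016 and -0.012 were small beside SEs of 0.21 and 0.22. For Prkcb, Prkce, Prkcz, Camk2d, Camk2g and Ppp3r1 the sign depended on the probe set.

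The sequences before the start of Nrgn, Camk2b and Plcb3 are shown as examples of members with a probe set at an unadjusted p under 0.05 against the isocaloric array. RefSeq (build GRCr8) gave promoter entries for 31 of the 37 genes. Itpka and Camkk2 were not among them. Each is the 250 bases before the start, 5′ to 3′ on the gene's strand, with capitals for the GC box GGGCGG and for TGACG, the core of the cAMP response element, on either strand. The Nrgn stretch is chr8:45452418-45452667, minus strand, the Camk2b stretch chr14:85147945-85148194, minus strand, and the Plcb3 stretch chr1:213589436-213589685, minus strand.
Nrgn: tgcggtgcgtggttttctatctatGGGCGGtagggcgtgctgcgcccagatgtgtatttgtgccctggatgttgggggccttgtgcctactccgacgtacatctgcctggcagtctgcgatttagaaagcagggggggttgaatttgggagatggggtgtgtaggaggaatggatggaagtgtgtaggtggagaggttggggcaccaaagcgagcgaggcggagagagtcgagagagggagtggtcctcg
Camk2b: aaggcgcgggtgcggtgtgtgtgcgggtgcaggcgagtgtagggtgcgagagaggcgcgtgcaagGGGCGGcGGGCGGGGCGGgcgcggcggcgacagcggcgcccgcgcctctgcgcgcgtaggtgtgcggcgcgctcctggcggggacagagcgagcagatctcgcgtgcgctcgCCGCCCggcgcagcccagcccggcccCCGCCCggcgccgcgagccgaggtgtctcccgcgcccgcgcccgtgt
Plcb3: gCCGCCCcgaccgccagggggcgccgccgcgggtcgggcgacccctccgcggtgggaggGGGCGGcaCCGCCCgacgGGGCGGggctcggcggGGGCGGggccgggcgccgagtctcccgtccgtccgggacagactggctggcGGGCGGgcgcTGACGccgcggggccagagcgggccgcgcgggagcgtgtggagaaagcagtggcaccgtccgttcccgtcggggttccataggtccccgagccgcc
A GC box was found once in the Nrgn stretch, 5 times in that of Camk2b and 6 times in that of Plcb3, which also held TGACG. Over the matched members, 22 of 31 stretches held a GC box (71.0%), against 30.5% of all 33469 RefSeq windows. These windows were not limited to genes on the array. Their median GC content was 51.2%, against 69.2% for the members. TGACG was in 8 of 31 (25.8%, all windows 18.2%) and the full element TGACGTCA, which contains TGACG, in 0 of 31 (1.59%). TATAAA was in 2 of 31 (6.45%, all 12.9%) and the E-box CAGCTG in 2 of 31 (6.45%, all 12.0%). A match is a description of letters and not of binding.

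Of 85 other genes of the pathway that are not members, 57 were on the array and 46 were tested; none passed an adjusted p of 0.05. Their median differences were 0.09 after fetal alcohol against control diet, 0.13 against the isocaloric array and -0.08 between the diets. At an unadjusted p under 0.05, 1 was higher and 3 lower against control diet (1.51% and 3.21% of all tested genes), 4 higher and 0 lower against the isocaloric array (2.36% and 1.54%), and 0 higher and 5 lower between the diets (1.17% and 4.66%). The smallest p-values against control diet belonged to Camk2n2, an inhibitor of calmodulin-dependent kinase II, with -1.04 ± 0.28 (limma adjusted p = 0.573), the muscarinic receptor Chrm3 with 0.79 ± 0.25 (a dimmer probe set gave -0.02) and the sodium-calcium exchanger Slc8a1 with -0.64 ± 0.22 (a dimmer one gave 0.33). Camk2n2 measured 134 and 190 on control diet, 87.6 and 58.8 after fetal alcohol and 69.7 with the isocaloric diet, so it was lower on both kinds of array than on control diet. Against the isocaloric array they belonged to the calcium-binding protein S100b with 0.85 ± 0.29, Camk2n1, a second kinase II inhibitor, with 0.82 ± 0.31 and the calcium sensor Hpcal4 with 0.69 ± 0.28 (dimmer probe sets gave 0.57 and -0.32). Between the diets they belonged to the muscarinic receptor Chrm1 with -1.03 ± 0.30, Camk2n2 with -1.08 ± 0.34 and the kinase anchor Akap12 with -0.77 ± 0.31.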

How the data were processed

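The deposited values are array intensities on a linear scale, 1 per probe set, from 5 arrays, and how they were summarised and scaled is not given in the sources used here. All columns had a 2% trimmed mean of 150.0, so columns were used as deposited. The 59 control probe sets were left out. Intensities became log2(intensity + 10.6), and 5244 of 8740 probe sets at or above the 40th percentile of mean log2 value were tested. Genes were named from the platform annotation (7006 probe sets with 1 symbol, 308 with several, 1426 with none). The 3 comparisons were fitted in limma 3.58.1 (R 4.3.3; lmFit, eBayes with intensity trend, 2-sided, Benjamini-Hochberg over all tested probe sets), with 2 residual and 6.30 prior degrees of freedom. The fit was tested on simulated arrays, where it recovered 63.4% of changes of 1 and 99.8% of changes of 2 on the log2 scale between fetal alcohol and control diet, over 5244 probe sets. Noise was drawn independently for each probe set with the spread of the fit, and all changes were increases. Deviations shared between probe sets of an array were not simulated, so these shares need not hold for the real arrays. The number of arrays limits the precision.

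Members, roles and the pathway list were chosen with earlier results of these data known. Genes were named by role, up to 4 a role with all 5 values, ranked by their largest difference; Prkch and Plcb1 were added after their values were seen. Other probe sets past the filter were given beside these or counted. Alternatives covered normalization, offset, filter, variance trend, probe set averaging, replicate block and leaving out arrays. The labels give replicate numbers no meaning beyond a name.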

Additional observations from a re-analysis of the deposited data

How the results depend on the processing

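No member gene passed the threshold under any alternative run, in any comparison. The count of probe sets past the threshold on the whole array, 0 in each comparison as reported, became 1 with quantile normalization, 9 with equal medians and 1 with the offset at the 40th percentile for fetal alcohol against control diet, and 3 with quantile normalization and 3 with equal medians against the isocaloric array. Leaving out a control diet or fetal alcohol array gave 0 to 25 against control diet, 0 to 12 against the isocaloric array and 0 to 13 between the diets; in each comparison every count above 0 came without fetal alcohol array 1 (17, 10 and 11) or array 2 (25, 12 and 13), where only the control diet pair is left to estimate the spread. The replicate number as a block gave 8 and, because same-numbered arrays deviated from their group means with a correlation of -0.113, the crossed pairing, chosen after seeing the data, gave 21, with 0 members in either; the numbers are not known to pair the samples.

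The members' median difference of 0.05 between fetal alcohol and control diet became 0.084 with quantile normalization, 0.091 with equal medians and 0.0076 with probe sets averaged, 0.082 to 0.17 without 1 control diet or fetal alcohol array, and was 0.05 without the isocaloric array. The median of 0.24 against the isocaloric array became 0.21 with quantile normalization and 0.20 with the offset at the 40th percentile. It was 0.20 without fetal alcohol array 1 and 0.17 without array 2, and control diet arrays do not enter it. Between the diets the median of -0.07 became -0.00694 with equal medians, where 14 members lay above 0 in place of 9, and -0.15 with averaged probe sets. In all alternatives these medians kept their sign. Some alternatives cannot change the sign of a gene's difference, among them the variance trend, a block and leaving out an array of a group not compared. The counts of kept signs therefore rest on fewer alternatives than were run, and not on the same ones in each comparison. A single sign in every alternative was kept by 13 of 30 members against control diet, 19 against the isocaloric array and 17 between the diets; the sign differed from the reported one in 43, 14 and 24 values, of which 48 came from leaving out an array. The causes were not tested.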
